A study of Mus musculus with 8 samples.

Results

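The 57 genes described here encode the machinery of mitosis: kinetochore and spindle checkpoint proteins, mitotic kinesins, kinases and cyclins, and the proteins of the spindle, of anaphase and of cytokinesis. They were taken by symbol from a list that was drawn up with earlier results of these data known. All 57 were found among the 56980 gene IDs of the deposited count table and passed the filter on low counts. The cells were oligodendrocyte progenitor cells, the dividing precursors of myelin-forming oligodendrocytes, from wild-type C57BL/6 mouse pups of either sex at postnatal day 6 to 8. Cortical cells had been captured on dishes coated with an antibody to PDGFRα, the receptor through which PDGF keeps progenitors dividing, and were kept in 10 ng/mL PDGF-AA after the 20 ng/mL bFGF used for their expansion had been washed out. Lectin-coated dishes had first taken up microglia and endothelial cells. In low glucose (LG) cultures the medium, which had held 25 mM glucose, was replaced in steps with one of less glucose. It held 12.5 mM from day 1, then 5 mM for day 2, and 2.5 mM from day 3 onwards. The high glucose (HG) cultures were left at 25 mM. RNA was taken from both on day 5. Each group holds 4 libraries numbered 1 to 4, and n = 4 counts libraries. The labels speak of independent biological preparations, but in both groups the sample descriptions of numbers 1 and 2 begin with the same code, while numbers 3 and 4 have a code each. If the code marks a preparation, the 4 libraries of a group come from 3, which the labels do not settle.

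At entry into mitosis, cyclin B with CDK1 phosphorylates the proteins that condense chromosomes and build the spindle. Kinetochores, assembled on centromeric chromatin, tie each chromatid to spindle microtubules, and the checkpoint holds back the anaphase promoting complex until all are attached. Kinesins, which are motors that walk along or disassemble microtubules, separate the poles and move the chromosomes, and others gather the central spindle where the cell then divides. Messenger RNAs of these genes accumulate mainly in G2 and M phase, so that in a bulk sample a lower level can come from fewer cells in these phases or from less RNA in each of them, and the deposited counts cannot tell these apart.

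The libraries held 53869166 to 65733928 counts each in LG and 50864130 to 61915909 in HG. Markers of the labelled cell type were abundant: 7 progenitor markers, Pdgfra among them, summed to 8771 to 11770 CPM (counts relative to the TMM-scaled library size) in LG and 8378 to 11620 CPM in HG. The 8 astrocyte markers summed to 662 to 1922 CPM in LG and 767 to 1776 CPM in HG, with libraries 1 and 2 of both groups high and libraries 3 and 4 low. The most abundant of them were Slc1a3, Sox9 and Aldoc, at means of 435, 280 and 276 CPM over all libraries, with Gfap at 37.4. The 8 neuron markers, most of whose counts were Map2, summed to 880 to 942 CPM in LG and 902 to 1063 CPM in HG. Map2 had a mean of 874 CPM over all libraries, against 33.9 for Tubb3, 16.2 for Syt1 and 7.37 for Snap25. Stmn2, Slc17a7, Rbfox3 and Gad1 had means of 0.106, 0.168, 1.92 and 2.07 CPM. The 8 microglia markers summed to 1.10 to 2.45 CPM in LG and 1.27 to 1.70 CPM in HG with Cx3cr1 at 0 throughout, and the 7 endothelial markers to 6.04 to 7.41 CPM in LG and 5.06 to 6.70 CPM in HG with Cldn5 and Cdh5 at 0. The 8 mural and fibroblast markers summed to 8.95 to 51.8 CPM in LG and 9.42 to 50.1 CPM in HG, most of it Notch3. Whether these sums came from other cells was not tested, nor was the part of such cells in the results below.

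Most mitotic genes had lower levels in LG, by small amounts for the majority and by more for Cenpf, Cenpe, Knl1 and Kif20b. Of the 57 genes, 55 had a negative log2 fold change (LG over HG) without regard to the pairs, against 48.6% of the 18905 genes tested. The same number, 55, was negative with the library number as a block (49.6% of all genes) and with the block and offsets described below (51.6%). Their median was -0.16, against 0.0051 for all tested genes. Together they took 5251, 4793, 4762 and 4562 CPM in LG libraries 1 to 4, against 6186, 5280, 5262 and 5410 CPM in HG libraries 1 to 4. LG library 1, the highest of its group, lay just below HG library 3, the lowest of its group, so that the groups did not overlap in this sum. Over the 4 pairs of same-numbered libraries, LG over HG was 0.849, 0.908, 0.905 and 0.843 in pairs 1 to 4.

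Whether single genes passed depended on how the pairs were treated. In edgeR's quasi-likelihood test without regard to the pairs no gene passed an adjusted p of 0.05, among the 57 or among all genes (0.0% in either direction). In that test 13 of the 57 had an unadjusted p under 0.05 and were lower, against 2.68% of all genes. DESeq2 in the same design also called 0 of the 57, against 0.0317% of all genes as lower, and limma-voom called 0.

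With the library number as a block, 6 of the 57 passed, all lower, against 0.307% of all genes lower and 0.111% higher: Cenpe, Knl1, Kif20b, Kif15, Hmmr and Nusap1. With that block 35 of the 57 had an unadjusted p under 0.05 and were lower, against 7.43% of all genes. Offsets that take out each library's dependence on GC content and transcript length were then added to the block. In that fit 16 passed, all lower, against 1.08% of all genes lower and 0.296% higher. Of the 6, only Nusap1 did not pass there (edgeR adjusted p = 0.0616).

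The count of 6 changed when a pair was left out: it was 1 without pair 1 (Cenpe), 0 without pair 2, 1 without pair 3 (Knl1) and 7 without pair 4. The count over all genes changed too. As lower, 58 of 18905 genes passed with the block. Without pairs 1 to 4 in turn it was 4 of 18991, 0 of 18831, 30 of 19081 and 96 of 18809. With the code that numbers 1 and 2 share taken as a preparation and used as the block, 0 of the 57 passed, against 0.00529% of all genes. With counts summed per code 3 passed, Cenpe, Cenpf and Knl1, against 0.073%. With the library number as a block DESeq2 called 20 as lower, against 1.56%, and limma-voom 6, against 0.249%. The 20 hold Ttk, Nuf2, Kif4, Kif18a and Anln, which passed in neither edgeR fit, and lack Foxm1 and Mybl2. In what follows, a gene is said to pass by edgeR's test with the block, or with the block and offsets, unless another tool is named. Of the 57 genes, 36 had a lower value in LG in every pair, against 11.0% of all genes. For 9 every LG library lay below every HG library, against 1.82% of all genes.

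**Figure D1:**
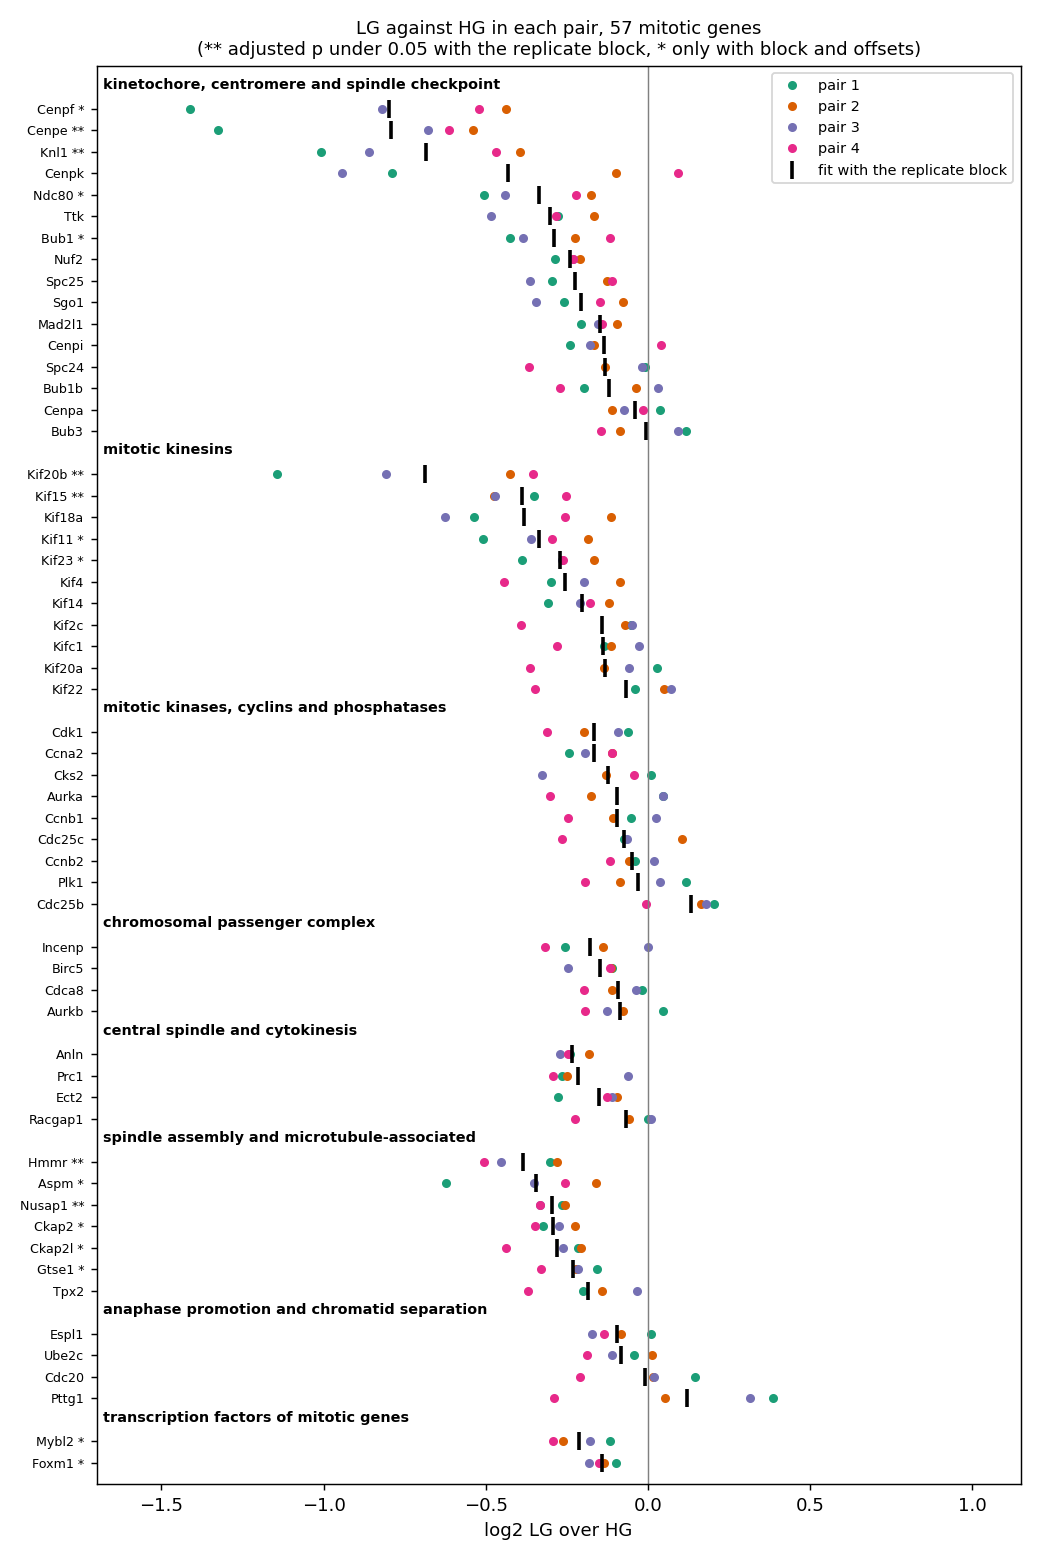
Each row is a gene and each coloured point the difference of log2 CPM between the LG and the HG library of the same number, on the x axis, with the log2 fold change of the edgeR fit with the replicate block as a black bar, grouped by role. All 4 points of Cenpf, Cenpe, Knl1 and Kif20b lie below 0, with pair 1 farthest left at -1.41, -1.33, -1.01 and -1.14. Their other points reach as far right as -0.35 (Kif20b, pair 4). Points of Bub3, Plk1 and Cdc20 lie on both sides of 0.

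The promoters of the 57 genes were read for shared sequence elements. Many genes of G2 and M phase carry the cell cycle genes homology region (CHR), which is bound by the MuvB proteins, with B-MYB (Mybl2) and FOXM1 when the genes are active, and CCAAT boxes, which are bound by NF-Y. RefSeq windows of GRCm38.p6, from 250 bases before to 50 bases after a start site, matched 49 of the 57 genes with 55 windows. The CHR letters TTTGAA, searched on both strands, stood in 65.5% of the 55 windows, against 17.9% of all 32817 windows. A form with a C, TTCGAA, stood in 7.27% against 1.56% and is not counted as a CHR match here. CCAAT, on both strands, stood in 76.4% against 37.4%, and both motifs in 54.5% against 6.94%. The members were listed as mitotic genes, so these shares describe the list and not its change in LG. In 1 of the 55 windows a CHR and a CCAAT match overlapped. The windows of 4 genes that passed with the block and have a CHR match, and of 2 genes with CHR and CCAAT matches whose fold change was near 0, are shown from 5′ to 3′ on the coding strand, with CHR matches (TTTGAA, or TTCAAA where it lies on the other strand) and CCAAT matches (CCAAT or ATTGG) in capitals.
Kif20b (chr19:34922108-34922407, plus strand): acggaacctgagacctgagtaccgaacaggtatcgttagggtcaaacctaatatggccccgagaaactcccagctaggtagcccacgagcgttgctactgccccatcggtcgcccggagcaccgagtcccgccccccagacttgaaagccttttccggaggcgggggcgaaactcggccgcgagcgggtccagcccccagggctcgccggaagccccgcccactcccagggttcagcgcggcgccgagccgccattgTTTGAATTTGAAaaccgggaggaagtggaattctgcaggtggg
Knl1 (chr2:119046869-119047168, plus strand): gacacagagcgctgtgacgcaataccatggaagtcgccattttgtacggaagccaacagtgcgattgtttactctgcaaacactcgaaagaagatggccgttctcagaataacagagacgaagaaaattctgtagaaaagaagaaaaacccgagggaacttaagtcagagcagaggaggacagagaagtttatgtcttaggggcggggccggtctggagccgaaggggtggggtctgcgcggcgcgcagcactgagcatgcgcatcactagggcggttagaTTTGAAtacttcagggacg
Kif15 (chr9:122950831-122951130, plus strand): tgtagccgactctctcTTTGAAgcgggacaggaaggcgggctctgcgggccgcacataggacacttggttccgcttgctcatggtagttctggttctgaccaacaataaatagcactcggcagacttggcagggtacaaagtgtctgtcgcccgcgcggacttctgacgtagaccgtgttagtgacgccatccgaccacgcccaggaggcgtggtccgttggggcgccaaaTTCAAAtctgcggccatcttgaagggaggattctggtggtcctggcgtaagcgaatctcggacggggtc
Hmmr (chr11:40733388-40733687, minus strand): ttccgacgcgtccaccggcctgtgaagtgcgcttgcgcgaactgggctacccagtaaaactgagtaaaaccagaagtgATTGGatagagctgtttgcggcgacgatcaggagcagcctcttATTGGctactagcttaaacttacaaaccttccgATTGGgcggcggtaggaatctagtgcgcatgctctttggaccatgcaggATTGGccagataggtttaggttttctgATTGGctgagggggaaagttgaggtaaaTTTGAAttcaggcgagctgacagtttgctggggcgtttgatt
Plk1 (chr7:122159185-122159484, plus strand): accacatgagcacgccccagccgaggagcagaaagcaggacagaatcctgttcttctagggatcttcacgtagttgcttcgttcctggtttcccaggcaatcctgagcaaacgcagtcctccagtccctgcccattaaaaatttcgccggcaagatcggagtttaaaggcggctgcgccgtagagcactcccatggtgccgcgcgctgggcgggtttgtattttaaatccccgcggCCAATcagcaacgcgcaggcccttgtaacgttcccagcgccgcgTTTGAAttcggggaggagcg
Cdc20 (chr4:118437294-118437593, minus strand): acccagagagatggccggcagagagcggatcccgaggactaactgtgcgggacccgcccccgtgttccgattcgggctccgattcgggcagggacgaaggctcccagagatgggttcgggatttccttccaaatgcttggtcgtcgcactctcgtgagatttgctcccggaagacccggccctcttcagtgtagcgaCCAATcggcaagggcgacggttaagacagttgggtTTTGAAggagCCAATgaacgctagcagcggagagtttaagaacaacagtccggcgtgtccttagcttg
Kif20b has 2 CHR matches side by side just after its start site and no CCAAT match. Knl1 has a single CHR match after its start site, and Kif15 has 2, both before its start site, with no CCAAT match in either window. Hmmr has 1 CHR match preceded by 5 CCAAT matches on the other strand. Plk1 and Cdc20 have both a CHR and a CCAAT match, which of the 4 genes that passed and are shown here holds for Hmmr. With the block, the median log2 fold change was -0.20 over the 33 genes with a CHR match and -0.21 over the 16 genes without one. Genes that passed with the block were found in both sets, 4 with and 2 without a match. Split by CCAAT instead, the median was -0.16 over the 36 genes with a match, of which 2 passed, and -0.24 over the 13 genes without one, of which 4 passed. Neither difference was tested. A match describes the letters only and is not a measured binding site.

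Cenpe, Cenpf and Knl1, with Kif20b, had the most negative log2 fold changes of the 57, and the kinetochore group holds 3 of these 4. All 16 kinetochore and checkpoint genes had negative log2 fold changes with the block, with a median of -0.23 that was -0.28, -0.15, -0.35 and -0.18 in pairs 1 to 4, and 2 passed with the block and 5 with the block and offsets. Cenpe, a kinesin of the outer kinetochore that carries chromosomes to the spindle equator (chromosome 3, 135212537 to 135273611, GRCm38), was at 69.7, 56.4, 46.1 and 36.8 CPM in LG libraries 1 to 4, against 175, 81.9, 73.7 and 56.3 CPM in HG libraries 1 to 4. It was lower in LG in each pair, but LG library 1 lay above HG library 4, and HG library 1 stood far above the other HG libraries. Cenpe fell by 0.79 on the log2 scale with the block (edgeR adjusted p = 0.0383, SE 0.118). Its pair differences lay between -1.33 in pair 1 and -0.54 in pair 2, with an SD of 0.363. Cenpf, a large coiled-coil protein of the outer kinetochore, was at 91.5, 103, 72.3 and 74.1 CPM in LG libraries 1 to 4, against 243, 139, 128 and 106 CPM in HG libraries 1 to 4. Here every LG library lay below every HG library. Its log2 fold change of -0.80 did not pass with the block (edgeR adjusted p = 0.0579), and with the offsets as well it fell by 0.68 (adjusted p = 0.0272, edgeR). With the block DESeq2 (adjusted p = 0.0151) and limma-voom (adjusted p = 0.0427) called it. Knl1, the scaffold that binds microtubules and recruits BUB1 (chromosome 2, 119047119 to 119105501), was at 32.3, 31.9, 19.7 and 19.5 CPM in LG libraries 1 to 4, against 65.1, 41.9, 35.8 and 27.0 CPM in HG libraries 1 to 4. It was lower in LG in 4 of 4 pairs with overlapping groups. Knl1 fell by 0.68 (edgeR with the block, adjusted p = 0.0346, SE 0.0999), with an SD of 0.298 over its pair differences. Without a block the log2 fold changes of Cenpe, Cenpf and Knl1 were -0.89, -0.86 and -0.72, and leaving out HG library 1 there gave -0.43, -0.54 and -0.43.

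The other subunits of the microtubule-binding KMN network differed less. Ndc80, which forms with Nuf2, Spc24 and Spc25 the complex that holds the microtubule, was at 43.8, 35.1, 24.8 and 25.2 CPM in LG libraries 1 to 4, against 62.2, 39.6, 33.6 and 29.4 CPM in HG libraries 1 to 4. It was lower in each pair with overlapping groups, at -0.34 with the block (edgeR adjusted p = 0.0801), and passed with the offsets at -0.28 (adjusted p = 0.0289, edgeR). DESeq2 with the block called it (adjusted p = 0.00919). Its partners were at -0.24 for Nuf2, -0.22 for Spc25 and -0.13 for Spc24 with the block, and none passed in either edgeR fit, while DESeq2 with the block called Nuf2 (adjusted p = 0.0216). Each of these was lower in LG in all 4 pairs. Of the checkpoint genes, Bub1, a kinase at the kinetochore, was at 50.8, 49.5, 37.8 and 41.2 CPM in LG libraries 1 to 4, against 68.2, 57.9, 49.3 and 44.7 CPM in HG libraries 1 to 4, lower in each pair. It passed with the block and offsets (log2 fold change -0.22, edgeR adjusted p = 0.0499) and not with the block alone (-0.29, edgeR adjusted p = 0.103), where DESeq2 called it (adjusted p = 0.0219). Ttk, the kinase that starts checkpoint signalling, was at -0.30 with the block (edgeR adjusted p = 0.0855) and at -0.25 with the block and offsets (edgeR adjusted p = 0.0501). It passed in neither, and DESeq2 with the block called it (adjusted p = 0.0154). Bub1b at -0.12, Mad2l1 at -0.15 and Sgo1, which protects centromeric cohesion, at -0.21 with the block did not pass. Bub3, the most abundant gene of this group by CPM, was at 165, 154, 179.7 and 168 CPM in LG libraries 1 to 4, against 152, 164, 169 and 185 CPM in HG libraries 1 to 4, lower in pairs 2 and 4 and higher in pairs 1 and 3, with a log2 fold change of -0.0047 with the block.

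At the centromere, Cenpa, the histone variant that marks it, was at -0.04 and Cenpi at -0.14 with the block. Cenpk, at 6.80 ± 1.92 CPM in LG and 9.28 ± 3.32 CPM in HG (SD, n = 4), had -0.79 and -0.94 in pairs 1 and 3 but -0.10 and 0.09 in pairs 2 and 4, and did not pass (edgeR adjusted p = 0.298 with the block).

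**Figure D2:**
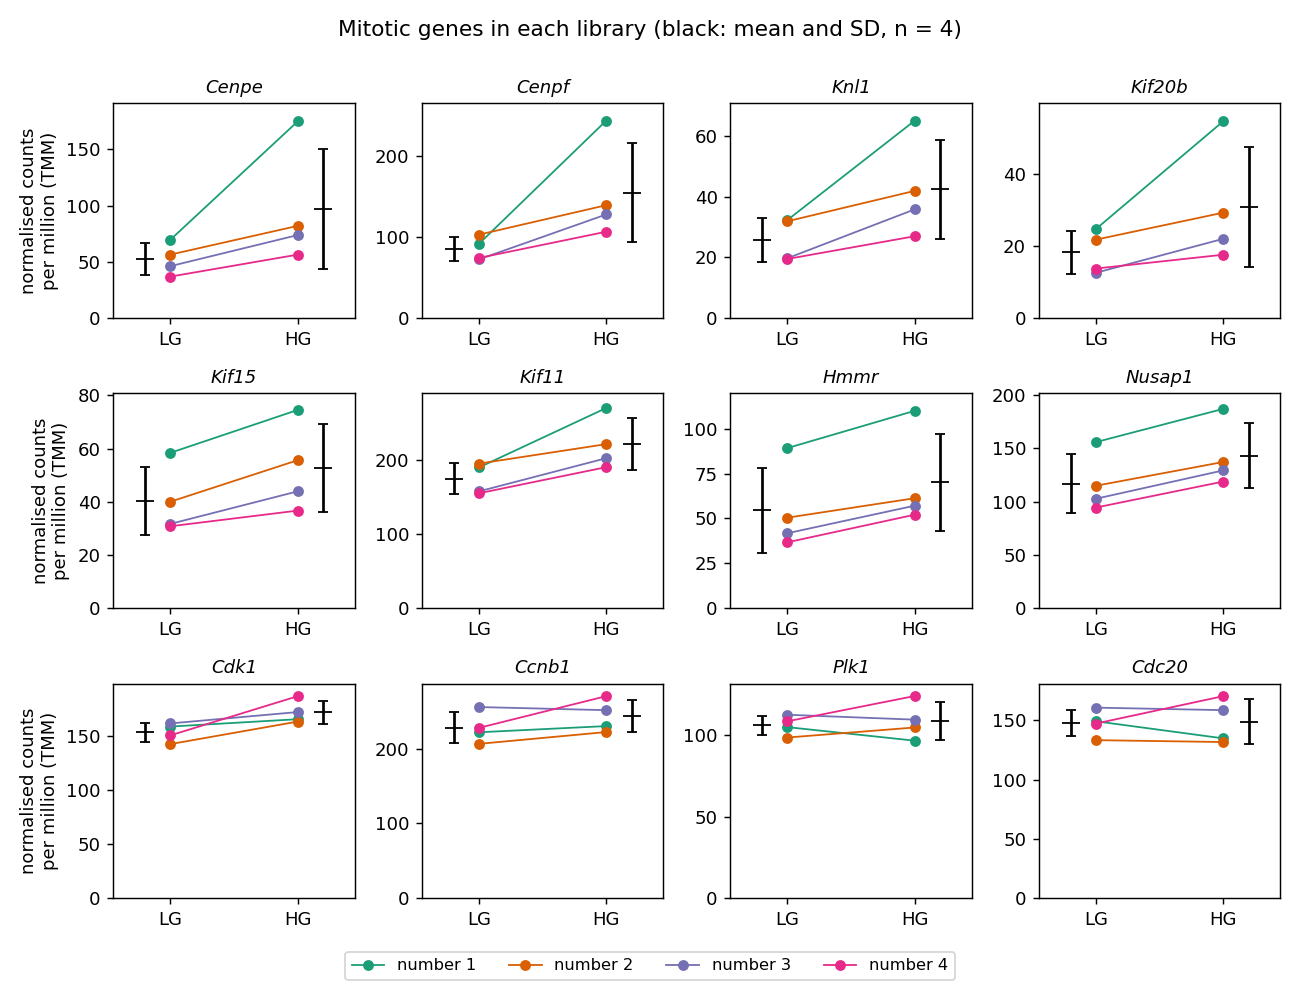
The y axis gives TMM-normalised CPM from 0 and the x axis the group, with a line joining the LG and HG library of each number, and black bars for the mean and SD of 4 libraries. In the panels of Cenpe, Cenpf, Knl1, Kif20b, Kif15, Kif11, Hmmr and Nusap1 every line is higher at HG, and in those of Ccnb1, Plk1 and Cdc20 some lines are higher at LG and others at HG.

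All 11 mitotic kinesin genes had negative log2 fold changes with the block, with a median of -0.26 that was -0.31, -0.12, -0.21 and -0.30 in pairs 1 to 4, and 2 passed with the block and 4 with the block and offsets. Kif20b, a kinesin of late mitosis and the midbody (chromosome 19, 34922361 to 34975745), was at 24.8, 21.8, 12.6 and 13.8 CPM in LG libraries 1 to 4, against 54.8, 29.3, 22.1 and 17.6 CPM in HG libraries 1 to 4. HG library 1 was again the highest by far, and LG libraries 1 and 2 lay within the range of HG libraries 3 and 4 or above it. Kif20b fell by 0.69 with the block (edgeR adjusted p = 0.0486, SE 0.120), with an SD of 0.366 over its pair differences. Without a block its log2 fold change was -0.76, and -0.33 when HG library 1 was left out. Kif15, a motor that can help hold the poles apart (chromosome 9, 122951046 to 123018733), was at 58.4, 40.0, 31.7 and 30.8 CPM in LG libraries 1 to 4, against 74.5, 55.6, 43.9 and 36.7 CPM in HG libraries 1 to 4. Its groups overlapped widely, while its pair differences of -0.35, -0.47, -0.47 and -0.25 lay close together. Kif15 fell by 0.39 with the block (edgeR adjusted p = 0.0381, SE 0.0636). Kif11, the kinesin Eg5 that pushes the poles apart, was at 190.0, 195, 158 and 155 CPM in LG libraries 1 to 4, against 270.3, 222, 202 and 190.4 CPM in HG libraries 1 to 4. Its lowest HG library lay between LG libraries 1 and 2. With the block Kif11 missed the threshold (-0.34, edgeR adjusted p = 0.0523) and passed with the offsets (-0.28, edgeR adjusted p = 0.0225). DESeq2 with the block called it (adjusted p = 0.000543). Kif23, which with Racgap1 bundles the central spindle, was at 50.9, 47.3, 38.2 and 38.8 CPM in LG libraries 1 to 4, against 66.6, 53.1, 45.9 and 46.5 CPM in HG libraries 1 to 4, lower in 4 of 4 pairs. It passed with the block and offsets (-0.26, edgeR adjusted p = 0.0342) and not with the block alone (-0.27, edgeR adjusted p = 0.0914), where DESeq2 called it (adjusted p = 0.0213).

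The other 7 kinesin genes did not pass in either edgeR fit, while DESeq2 with the block called Kif18a (adjusted p = 0.00904) and Kif4 (adjusted p = 0.0457). Kif18a, which shortens kinetochore microtubules, was at -0.38 with the block, the chromosome-bound Kif4 at -0.26, the midbody kinesin Kif14 at -0.20, the depolymerising Kif2c at -0.14, the minus-end motor Kifc1 at -0.14, the passenger complex carrier Kif20a at -0.13 and the chromosome arm motor Kif22 at -0.07. For Kif14 and Kifc1 every LG library lay below every HG library. Counts of some of these are uncertain. Kifc1 has a close copy, Kifc5b, at 96.8% identity over 2312 bases, with 44.4% as many counts, so reads may be split between them. Exons of Cdc23 on the other strand cover 29.3% of the exon bases of Kif20a, and those of Pdzd11 cover 15.1% of Kif4. Cdc23 held 55803 counts, against 34906 for Kif20a, and Pdzd11 held 19118, against 29642 for Kif4. The strand setting of the counting is not given in the sources used here, so reads of such pairs cannot be told apart. Among the members described below, genes on the other strand cover 12.5% of the exon bases of Ccna2 (Exosc9), 12.7% of Cdc25c (Gm3550), 11.1% of Prc1 (Rccd1) and 4.24% of Nusap1 (Oip5). Exosc9, Gm3550, Rccd1 and Oip5 held 16176, 532, 2878 and 5302 counts. Ccna2, Cdc25c, Prc1 and Nusap1 held 80495, 20956, 53718 and 59660.

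All 7 spindle assembly genes were lower in LG in each of the 4 pairs, with a median of -0.29 with the block that was -0.26, -0.22, -0.27 and -0.35 in pairs 1 to 4. Of these, 2 passed with the block and 5 with the block and offsets. Hmmr, which links the centrosome to spindle microtubules (chromosome 11, 40701395 to 40733422), was at 89.2, 50.4, 41.7 and 36.7 CPM in LG libraries 1 to 4, against 110.0, 61.3, 57.1 and 52.1 CPM in HG libraries 1 to 4. Library 1 was high in both groups, so the groups overlapped. Hmmr fell by 0.38 with the block (edgeR adjusted p = 0.0364, SE 0.0621). Nusap1, which bundles microtubules around chromosomes (chromosome 2, 119618298 to 119651244), was at 156, 115, 103 and 94.4 CPM in LG libraries 1 to 4, against 187, 137, 129 and 119 CPM in HG libraries 1 to 4. It had the same order of libraries in both groups, with pair differences between -0.33 and -0.26. Nusap1 fell by 0.30 with the block (edgeR adjusted p = 0.0493, SE 0.0538). Aspm, a protein of the spindle poles, was at 122, 129, 109 and 112 CPM in LG libraries 1 to 4, against 187, 144, 139 and 133 CPM in HG libraries 1 to 4. For Aspm the groups did not overlap, and it passed with the block and offsets (-0.25, edgeR adjusted p = 0.0395) and not with the block alone (0.0748). DESeq2 with the block called it (adjusted p = 0.00273).

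Ckap2, a microtubule-associated protein of the spindle, was at 163, 129, 106 and 100.1 CPM in LG libraries 1 to 4, against 204, 151, 128 and 127 CPM in HG libraries 1 to 4. Ckap2l, its paralog, was at 157, 101, 101 and 84.0 CPM in LG libraries 1 to 4, against 183, 117, 122 and 114 CPM in HG libraries 1 to 4. In both genes library 1 was the highest of its group. Gtse1, a microtubule-binding protein that is also a p53 regulator, was at 68.3, 63.0, 55.0 and 58.6 CPM in LG libraries 1 to 4, against 76.2, 73.5, 63.8 and 73.6 CPM in HG libraries 1 to 4. All 3 genes had overlapping groups and were lower in LG in each pair. In edgeR they missed the threshold in the fit with the block and passed once offsets were added, at -0.24, -0.26 and -0.30, with edgeR adjusted p = 0.0457, 0.0352 and 0.0108. DESeq2 with the block called all 3 (adjusted p = 0.00105, 0.0061 and 0.044). Tpx2, which activates Aurora A on the spindle and was the most abundant of this group, was at 265, 216, 235 and 202 CPM in LG libraries 1 to 4, against 304, 239, 240.0 and 260.3 CPM in HG libraries 1 to 4, with -0.19 and an edgeR adjusted p of 0.250 with the block.

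Kinase and cyclin genes had small differences and none of the 9 passed in any of the 3 edgeR fits. Their median was -0.10 with the block and -0.04, -0.11, 0.02 and -0.19 in pairs 1 to 4, and 8 of 9 were negative. Cdk1, the kinase that drives mitotic entry, was at 159, 142, 162 and 150.5 CPM in LG libraries 1 to 4, against 165, 163, 172 and 187 CPM in HG libraries 1 to 4. Every LG library lay below every HG library, with means of 153 ± 8.61 CPM in LG and 172 ± 10.6 CPM in HG (SD, n = 4 each). The log2 fold change was -0.16 (edgeR adjusted p = 0.273 with the block). Ccna2, the cyclin A of S and G2 phase, also had groups apart, at 164 ± 7.87 CPM in LG and 183 ± 1.87 CPM in HG, with -0.16 (edgeR adjusted p = 0.235, block). Ccnb1, cyclin B1 and the most abundant of these genes by CPM, was at 222, 207, 256 and 228 CPM in LG libraries 1 to 4, against 230.5, 222, 252 and 271 CPM in HG libraries 1 to 4. It was higher in LG in pair 3 and lower in the others, at -0.10. Its processed copies Ccnb1-ps, Gm12856 and Gm8416, at over 95% identity, held 8.28%, 4.61% and 2.01% as many counts, so reads may be split among them.

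Ccnb2 was at -0.05, Plk1, the kinase of spindle poles and kinetochores, at -0.03, Aurka at -0.10, the CDK1-activating phosphatase Cdc25c at -0.07 and the CDK subunit Cks2 at -0.12, all with the block. Cdc25b, the phosphatase that acts at the start of mitosis, was higher in LG in 3 of 4 pairs at 0.14 (edgeR adjusted p = 0.352), and had a positive sign in all 29 settings tried.

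The chromosomal passenger complex, which corrects wrong attachments and then acts in cytokinesis, had 4 of 4 genes negative and none that passed, with a median of -0.12. Incenp, its scaffold, was at 133, 123, 122 and 116 CPM in LG libraries 1 to 4, against 158, 135, 122 and 145 CPM in HG libraries 1 to 4, lower in 3 of 4 pairs and level in pair 3, with -0.18 and an edgeR adjusted p of 0.264 with the block. Birc5 was at -0.15 with groups apart, Cdca8 at -0.09 and the kinase gene Aurkb at -0.09. The 4 genes of the central spindle and the contractile ring had a median of -0.18, and none passed in either edgeR fit. Anln, which ties actin to the contractile ring, was at 55.2, 47.3, 44.9 and 48.6 CPM in LG libraries 1 to 4, against 65.1, 53.6, 54.1 and 57.7 CPM in HG libraries 1 to 4, with pair differences between -0.27 and -0.18. Its log2 fold change was -0.23 (edgeR adjusted p = 0.114, block), and DESeq2 with the block called it (adjusted p = 0.0415). Racgap1, the GTPase activating partner of Kif23, was at 263, 244, 265 and 243 CPM in LG libraries 1 to 4, against 262, 253, 263 and 284 CPM in HG libraries 1 to 4, with -0.07 and pairs on both sides of 0. Prc1, which crosslinks antiparallel microtubules, was at -0.22 and the RhoA activator Ect2 at -0.15.

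The 4 genes of anaphase had a median of -0.04 with the block, the nearest 0 of the 8 role groups in that fit, and of -0.12 with the block and offsets, where the kinase and cyclin group at -0.07 was nearer 0. The median was 0.08, 0.02, -0.05 and -0.20 in pairs 1 to 4. Ube2c, the ubiquitin-conjugating enzyme of the anaphase promoting complex and among the most abundant members per length, was at 154, 150.1, 175 and 170.1 CPM in LG libraries 1 to 4, against 158, 148, 189 and 194 CPM in HG libraries 1 to 4. The groups overlapped, and its log2 fold change was -0.08. Exons of Tnnc2 on the other strand cover 22.8% of its exon bases, but Tnnc2 held 4 counts, against 77866 for Ube2c. Cdc20, the coactivator that the checkpoint restrains, had 148 ± 11.2 CPM in LG and 149 ± 18.7 CPM in HG (SD, n = 4 each), at -0.0071 on the log2 scale. Espl1, separase, was at -0.09. Pttg1, its inhibitor securin, was at 10.3, 9.15, 5.48 and 4.13 CPM in LG libraries 1 to 4, against 7.86, 8.82, 4.40 and 5.06 CPM in HG libraries 1 to 4, higher in LG in 3 of 4 pairs, at 0.12 with an edgeR adjusted p of 0.707 with the block. Per kilobase of exon, Cdc20 and Ube2c had mean levels of 79.3 and 64.4 CPM, Cks2 56.2, Ccnb1 56.0 and Tpx2 52.4, while Cenpe had 8.64, Cenpf 7.75, Knl1 4.00 and Kif20b 3.54. The 4 genes with the most negative fold changes were thus well below Cdc20 and Ube2c in level.

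Of the transcription factors that switch these genes on, Foxm1 was at 138, 139.6, 131 and 143 CPM in LG libraries 1 to 4, against 148, 153, 148 and 158 CPM in HG libraries 1 to 4. Every LG library lay below every HG library, and the log2 fold change was -0.14 with the block (edgeR adjusted p = 0.287). Mybl2 was at 39.4, 34.1, 29.6 and 30.9 CPM in LG libraries 1 to 4, against 42.7, 40.9, 33.5 and 37.9 CPM in HG libraries 1 to 4, lower in 4 of 4 pairs with overlapping groups, at -0.21 with the block (edgeR adjusted p = 0.189). Both passed with the block and offsets, at -0.21 (edgeR adjusted p = 0.0462) and -0.31 (edgeR adjusted p = 0.0196). A processed copy of Mybl2, Gm3320, held 9.21% as many counts.

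Other genes of the same structures were set beside the members. Negative counts and medians of these lists are from the fit with the block unless stated. Of the 15 genes of the MIS12, SKA and RZZ complexes and their partners, 14 were negative with a median of -0.20. Of the 18 genes of the constitutive centromere-associated network and CENP-A loading, 15 were negative with a median of -0.12. None of these genes passed with the block, Sgo2a, a protector of centromeric cohesion, having the most negative value of the first list at -0.49. Cohesin genes had 11 of 12 negative, with a median of -0.24 with the block and -0.14 with the block and offsets. Their median was -0.45, -0.18, -0.21 and -0.13 in pairs 1 to 4. Smc1a, Smc3, Nipbl and Esco2 passed as lower with the block and offsets, at -0.37, -0.39, -0.32 and -0.32. DESeq2 with the block called these genes (adjusted p = 0.00051, 0.00053, 0.0022 and 0.0126) and also Pds5a and Pds5b (adjusted p = 0.0385 for each). Among 14 other genes of mitotic entry, 13 were negative with a median of -0.10, and Wee1, which holds CDK1 inactive, and Fbxo5, which holds the anaphase promoting complex inactive, passed as lower with the block and offsets, at -0.36 and -0.33. The 16 genes of the anaphase promoting complex had 3 negative and a median of 0.04, with none that passed and Cdc27 the farthest from 0 at -0.22. The 22 kinesins listed as non-mitotic had 14 negative and a median of -0.03, with Kif5b, a transport kinesin, passing as lower with the block and offsets at -0.33. The 10 genes of the MuvB core and its repressor partners had 5 negative and a median of 0.0002. None passed, and Rbl1, a repressor partner, was the farthest from 0 at -0.26. No difference between lists or role groups was tested.

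**Figure D3:**
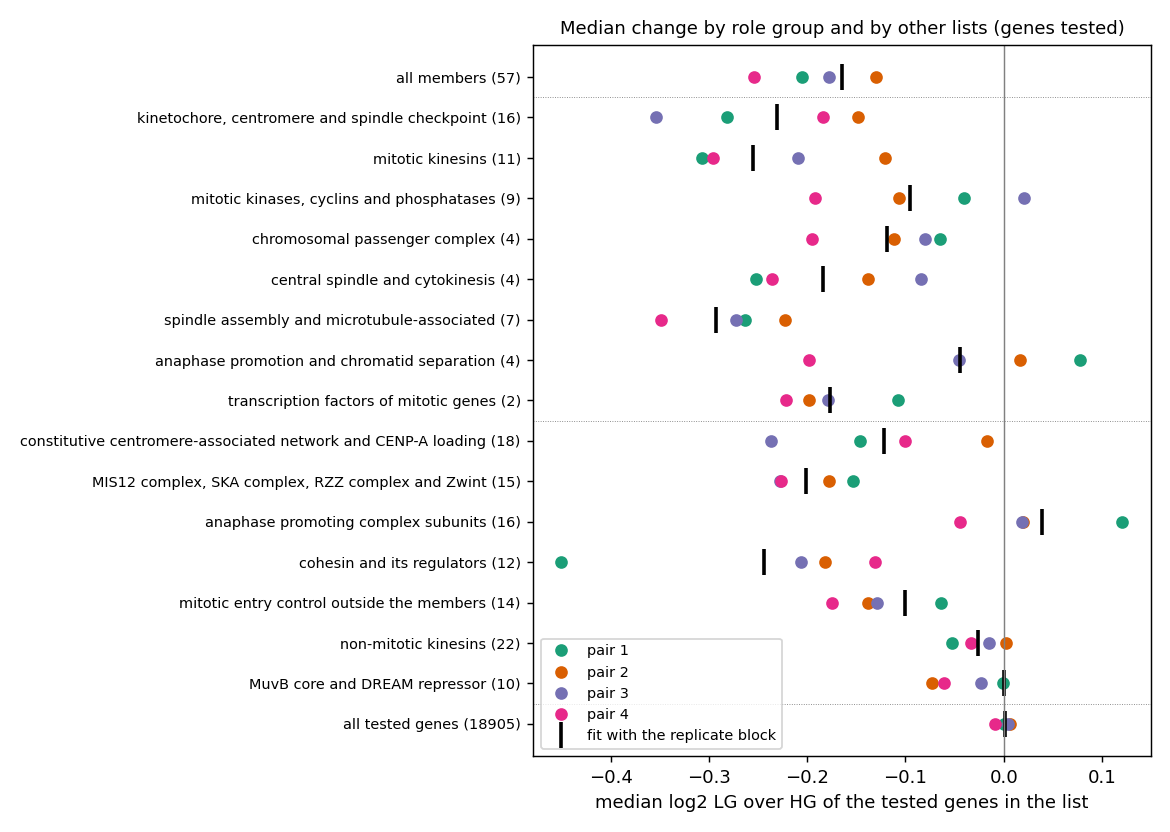
Each row is a role group of the 57 genes (upper part), another list (middle) or all tested genes (bottom), with the number of genes, and the x axis is the median log2 LG over HG, as coloured points for the 4 pairs and a black bar for the fit with the replicate block. Medians of the kinetochore, kinesin, passenger complex, central spindle, spindle assembly and transcription factor groups lie left of 0 in all 4 pairs. So do those of the centromere-associated network, MIS12, cohesin, mitotic entry and MuvB lists, the last with -0.0005 in pair 1. Medians of the kinase and anaphase groups and of the anaphase promoting complex and non-mitotic kinesin lists lie on both sides. Those of all tested genes lie between -0.0089 and 0.0063.

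The log2 fold change varied with the base composition of the transcript. In the 19 members of lowest GC content (37.1% to 43.0%) its median with the block was -0.30, in the 19 of middle content (43.3% to 48.1%) -0.16 and in the 19 of highest content (48.4% and above) -0.10. All 6 genes that passed with the block were among the 19 of lowest GC content. Across the 57 members, which share libraries, the rank correlation of the fold change with GC content was 0.632 and with exon length -0.50, and across 18424 tested genes these were 0.356 and -0.03. Per library, the rank correlation of log2 CPM, relative to the mean of all libraries, with GC content over all genes was 0.110, -0.06, 0.275 and 0.119 in LG libraries 1 to 4, against -0.39, -0.20, -0.02 and 0.254 in HG libraries 1 to 4. In pairs 1, 2 and 3 the LG library thus had the higher value and in pair 4 the lower. Lower in LG were 45, 51, 45 and 55 of the 57 members in pairs 1 to 4, against 50.0%, 48.5%, 49.2% and 51.8% of all genes. Across the members the pair 4 difference had a rank correlation with GC content of -0.02, against 0.699, 0.394 and 0.669 in pairs 1 to 3. With the offsets the medians of the lowest, middle and highest GC groups were -0.24, -0.15 and -0.16, and the rank correlation with GC content was 0.23. Of the lowest, middle and highest GC groups, 9, 4 and 3 genes passed there, the last 3 being Gtse1, Foxm1 and Mybl2. By exon length, 3 passed among the 19 shortest members, 4 among the 19 of middle length and 9 among the 19 longest. The rank correlation of the fold change with exon length was -0.34 across the members with the offsets, against -0.01 across all genes. Cenpe, Cenpf, Knl1 and Kif20b had the 4 most negative values with the offsets too, at -0.70, -0.68, -0.53 and -0.58.

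**Figure D4:**
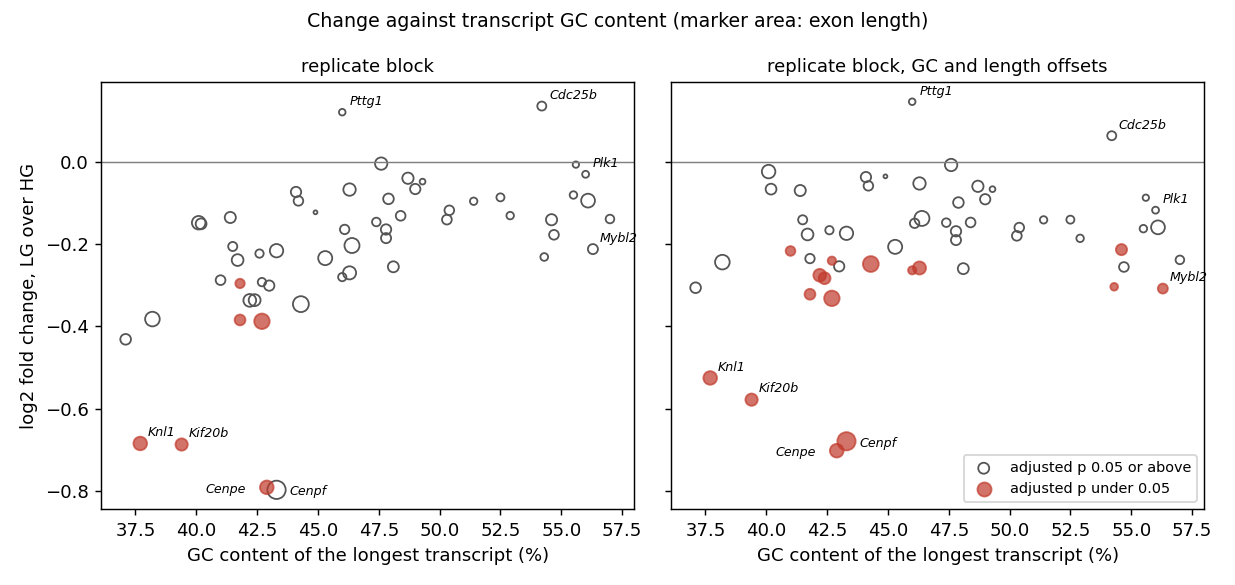
The x axis is the GC content of the longest annotated transcript in percent and the y axis the log2 fold change of LG over HG, with the replicate block (left) and with the block and the GC and length offsets (right), where marker area grows with exon length and filled red markers passed an adjusted p of 0.05. The rank correlation over the 57 genes is 0.632 on the left and 0.23 on the right, and Cenpe, Cenpf, Knl1 and Kif20b are lowest in both panels.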

How the data were processed

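The deposited table gives unnormalised counts by Ensembl gene ID, all whole numbers, as the authors deposited them. CASAVA 1.8.2, STAR, featureCounts, DESeq2 and mm10 are named, with no role or order, per the submitters' processing notes. Strand setting, handling of reads with several matches, and whether a count is a fragment or a single read are unstated in the sources at hand. The 57 members and the lists were chosen with earlier results of these data known.

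Symbols, exons and transcripts came from GENCODE M21 (GRCm38), and promoter windows from RefSeq. In R 4.3.3, edgeR 4.0.16 kept 18905 genes by filterByExpr, scaled libraries by TMM, and ran the quasi-likelihood test for LG over HG with group as the sole term. The p-values were adjusted over all tested genes by the Benjamini-Hochberg method. An SE is the size of the log2 fold change over the square root of that test's F statistic. It is not the SE of the pair differences. A library's rank correlation with GC content used log2 CPM with a prior count of 2. The fit was repeated with the library number as a block, alone and with offsets from mgcv 1.9.3 for GC content and length, for which 97.5% of tested genes had values. Other alternatives were DESeq2 1.42.0, limma-voom 3.58.1, other scaling and filters, blocks or sums by preparation, and fits without each library, pair or preparation. The steps were checked on simulated counts.

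Deviations from the group means correlated across genes at r from 0.448 to 0.625 between same-numbered LG and HG libraries, and at most 0.419 between different numbers, so the numbers were taken to pair the libraries. Numbers 1 and 2 share a code in their descriptions, so p-values over 4 libraries may measure technical spread in part. Close copies were transcripts of at least 95% identity over 300 bases or more. Values in every library are given for members that passed in any of the 3 edgeR fits and, in each role, for the member of highest mean CPM and that of largest fold change with the block. From each other list, the genes named are those that passed and the one of largest fold change, except for an item that is not reported here.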

Additional observations from a re-analysis of the deposited data

Results flagged for a closer look

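In groups of 4 libraries, a value was singled out where its gap to the nearest other library, over the group's range, passed Dixon's critical value. Of 132 groups checked 4 did so, and chance alone gives about 1 in 20. Ccna2 was lowest in HG library 3 at 7.4948 log2 CPM, against 7.5221 to 7.5274 in the other HG libraries, a narrow range. Cdc25c was lowest in HG library 2 at 5.3855 log2 CPM, against 5.5728 to 5.5884 in the others. Ckap2l was highest in HG library 1 at 7.5149 log2 CPM, against 6.8294 to 6.9258 in the others. The mean centred log2 CPM of the central spindle and cytokinesis genes was highest in LG library 1 at 0.0222, against -0.1348 to -0.1107 in the other LG libraries.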

How the results depend on the processing

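The number of the 57 genes with a negative log2 fold change lay between 51 and 55 in the 29 settings, and their median between -0.2074 and -0.1205. The number that passed an adjusted p of 0.05 did depend on the setting. Without a block it was 0 members and 0 genes in all, and there were 6 and 79 with the replicate block, 16 and 261 with block and offsets, 3 and 17 with sums per preparation, 20 and 453 by DESeq2 with the block, and 6 and 65 by limma-voom with the block. The preparation block gave 1 gene and DESeq2 without a block 7, none of them members. With the replicate block and each pair left out in turn, members that passed lay between 0 and 7 and all genes between 0 and 148, with 39 without pair 3. The cause of these differences was not tested.

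Genes near 0 changed sign. Bub3 was at 0.0003 by DESeq2, 0.0019 by DESeq2 with the block and 0.0004 with DESeq2's size factors. Without the preparation of number 4, Bub3 was at 0.0425, Kif22 at 0.0259, Plk1 at 0.0231, Cdc20 at 0.0593 and the anaphase median at 0.0045. With single libraries left out, the ranges were -0.0469 to 0.0472 for Bub3, -0.0999 to 0.0266 for Cenpa, -0.1388 to 0.0567 for Ccnb2, -0.0839 to 0.0359 for Plk1, -0.0553 to 0.06 for Cdc20, -0.0619 to 0.3497 for Pttg1 and -0.0877 to 0.0115 for the anaphase median. With the replicate block and pairs left out, the range was -0.045 to 0.0411 for Bub3, with 0.0225 without pair 2. Without pair 4 in that fit Kif22 was at 0.0276, Plk1 at 0.023, Cdc20 at 0.0602 and the anaphase median at 0.0071. Cenpk and Pttg1, the members of lowest mean CPM, had SDs of 0.509 and 0.305 over their 4 pair differences.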
